A study of Mus musculus with 12 samples.

Results

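Cytochrome P450 genes of families 1 to 4 were followed in the liver of mice after a single injection of saline or of 1 of 3 long-acting insulins. The members are the genes whose symbol has the form Cyp, a family number from 1 to 4, a subfamily letter and a gene number, taken from the probe sets with exactly 1 gene symbol on the Mouse Gene 1.0 ST array of Affymetrix. The probes of a probe set together measure 1 transcript cluster. A log2 expression value over 5 was required in at least 2 arrays of a treatment group. Of 65 such genes, each with a single probe set, 64 passed, in all 4 groups, out of 26027 probe sets that passed on the array. They fall into 20 subfamilies, 11 of which have 1 member. Around the threshold, Cyp2c65 was left out with values of 4.50 to 4.93 over the 12 arrays, and Cyp2j12 was kept with values of 5.10 to 5.50.

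Cytochromes P450 are heme enzymes of the endoplasmic reticulum that insert 1 atom of molecular oxygen into their substrate, with electrons passed on by the flavoprotein P450 reductase and in part by cytochrome b5. In the liver, families 1 to 3 oxidise drugs, pollutants, steroids and polyunsaturated fatty acids, and family 4 hydroxylates fatty acids, eicosanoids and vitamins at the end of their chain. Most are made in hepatocytes, and many are held under nuclear receptors and other sensors: Ahr for family 1, CAR (Nr1i3) and PXR (Nr1i2) for the Cyp2b, Cyp2c and Cyp3a genes, and Ppara for the Cyp4a genes. Several mouse P450 genes, Cyp2b9 and Cyp2b13 among them, are known for higher expression in females.

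The mice were C57BL/6, 6 weeks old according to the labels, whereas the methods give female C57BL/6J mice bought at an age of 7 weeks. They received a subcutaneous injection of saline, of Albulin (insulin fused to albumin), of Insulin-Apo (a fusion of apolipoprotein A-I with insulin in single-chain form) or of insulin glargine (a long-acting insulin analogue). The dose of each insulin was 55 nmol/kg, and the liver was taken 6 h later, with 3 arrays per group. Per the methods, the fusion proteins were expressed in E. coli and purified, and no group received a carrier protein without insulin in these arrays. The sources used here do not say whether every array came from its own animal, and the p values cover the variation among arrays, part of which may be technical. The 6 hepatocyte markers were high on every array, with a mean log2 value of 14.48 to 14.63, and limma called none of them changed against saline, with 1, 1 and 0 of the 6 at an unadjusted p under 0.05 after Albulin, Insulin-Apo and insulin glargine. Xist lay between 12.90 and 13.49 and the Y-linked Eif2s3y between 4.18 and 4.31 on the 12 arrays. In whole liver, fewer cells of a type and less RNA per cell cannot be told apart.

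Values are log2 expression values, so a difference of 1 is a factor of 2. They depend on the probes of each probe set, and levels are therefore compared between treatments of the same gene and not between genes. Against saline, Albulin and Insulin-Apo were tested with limma in a fit of 9 arrays and insulin glargine in a fit of all 12. A call required a B statistic, limma's log odds of a difference, above 0. Adjusted p values (Benjamini-Hochberg over all probe sets tested) are given beside the calls.

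The P450 genes mostly moved little at 6 h. The range over the 12 arrays was under 0.5 in 29 of the 64 members and over 1 in 12. Only 3 members were called in any of the 6 comparisons, all of them lower after an insulin than after saline: Cyp4f15 after each of the 3 insulins, Cyp2d22 after Insulin-Apo and Cyp2b9 after insulin glargine. No member was called higher. Albulin thus had 1 member called lower, where 1.04% of all probe sets tested were called lower. Insulin-Apo had 2, against 0.804% of all probe sets. Insulin glargine had 2, against 2.6% of all probe sets. At an adjusted p under 0.05, a looser criterion, Albulin had 3 members, 1 lower and 2 higher (4.69% of all probe sets in either direction), Insulin-Apo 4, all lower (3.73%), and insulin glargine 6, all lower (10.9%). The counts are too small to be read against these backgrounds.

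**Figure D1:**
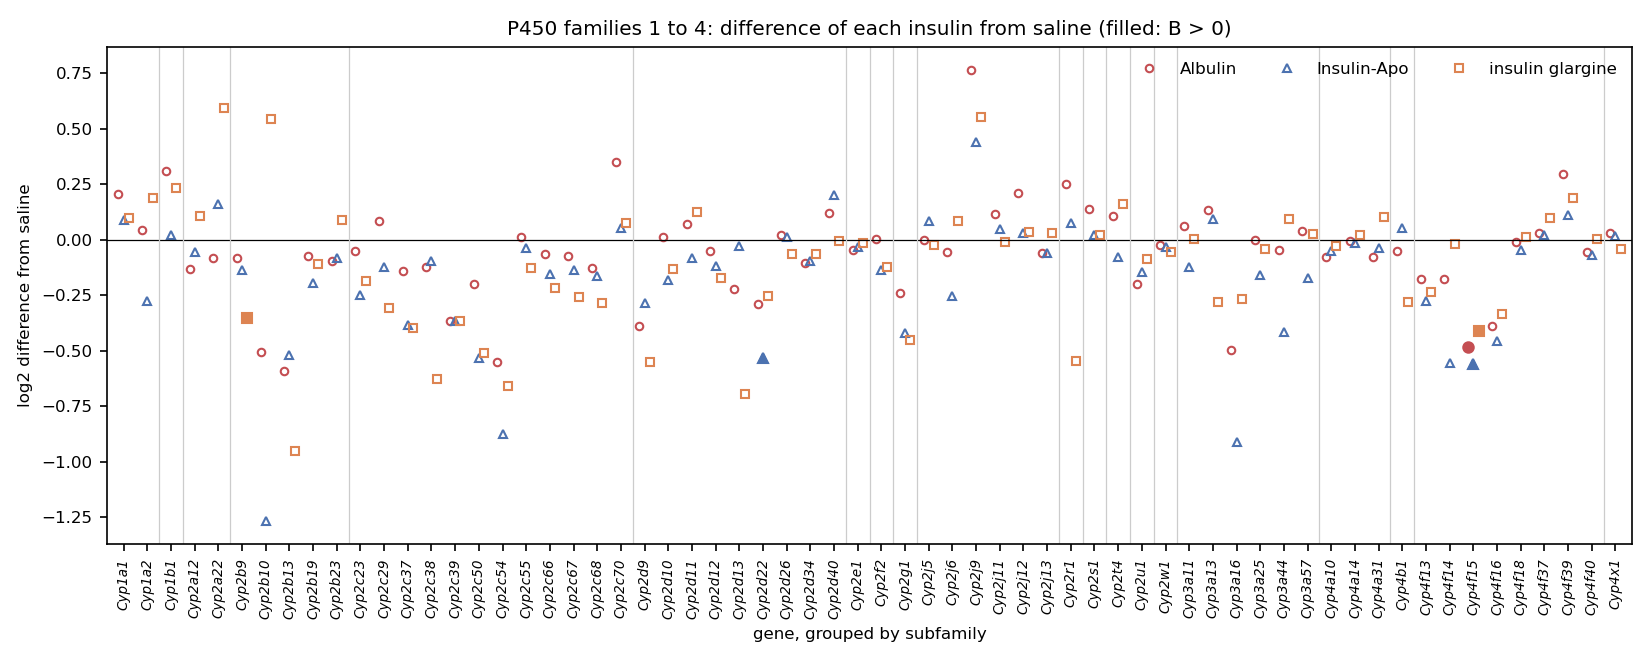
Log2 difference from saline (vertical axis) of each of the 64 members (horizontal axis, grouped by subfamily) after Albulin (circles), Insulin-Apo (triangles) and insulin glargine (squares). Each point is a difference between means of 3 arrays, filled where B was over 0. The lowest point is Cyp2b10 after Insulin-Apo, at -1.27, and the filled points are those of Cyp4f15, Cyp2d22 and Cyp2b9.

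Small shifts were more often downward than upward. The mean was below that of saline in 41 of 64 members after Albulin, 47 after Insulin-Apo and 40 after insulin glargine, and the 3 counts share the same saline arrays. Among all probe sets tested it was below saline in 12755 of 25989, 14540 of 25989 and 13039 of 26027. Of 17 measured genes of the other P450 families, 14, 14 and 8 had a mean below saline. The median log2 difference of the members was -0.05, -0.10 and -0.05, whereas the median of all probe sets tested was 0.00, -0.02 and 0.00. All 3 arrays of Albulin lay below all 3 arrays of saline for 10 members (15.6%, against 11.7% of all probe sets), and above them for 5 (7.81%, against 11.6%). After Insulin-Apo these counts were 15 below (23.4%, against 12.7%) and 0 above, against 10.4% of all probe sets. After insulin glargine they were 15 below (23.4%, against 13.1%) and 2 above (3.12%, against 11.8%). For 6 members (9.38%, against 2.58% of all probe sets) the arrays of each insulin lay below saline without overlap, and these were Cyp4f15, Cyp4f13, Cyp2d22, Cyp2b13, Cyp2c37 and Cyp2g1. Each insulin lay above saline in this way for 0 members, against 1.89% of all probe sets. The same saline arrays enter all 3 comparisons.

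The Cyp4f subfamily, with 8 members, held the gene that fell after every insulin. Cyp4f15, a fatty acid and leukotriene omega-hydroxylase, had values of 12.21, 12.29 and 12.18 in the saline arrays. They were 11.72, 11.79 and 11.71 after Albulin, 11.59, 11.58 and 11.82 after Insulin-Apo and 11.84, 11.79 and 11.81 after insulin glargine. Every array of the 3 insulins lay below every saline array, and all 9 insulin arrays were within 11.58 to 11.84. The log2 difference from saline was -0.49 after Albulin (1.40-fold lower, SE 0.08, limma adjusted p = 0.00578). It was -0.56 after Insulin-Apo (1.48-fold lower, SE 0.08, adjusted p = 0.0042) and -0.41 after insulin glargine (1.33-fold lower, SE 0.07, adjusted p = 0.00386). The calls for Albulin and Insulin-Apo held in all 20 alternative analyses of each. That for insulin glargine held in 19 of 22 and was lost without saline replicate 1 (-0.42), saline replicate 2 (-0.38) or insulin glargine replicate 2 (-0.40), with the difference hardly moved.

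The sequence before the start of Cyp4f15 is shown because this gene was the only member called in all 3 comparisons with saline. It is the 250 bases before the RefSeq transcription start on the plus strand of GRCm38.p6, chr17:32685409-32685658. None of the motifs searched for, which are described further on, was found in it, and no letters are in capitals.
Cyp4f15: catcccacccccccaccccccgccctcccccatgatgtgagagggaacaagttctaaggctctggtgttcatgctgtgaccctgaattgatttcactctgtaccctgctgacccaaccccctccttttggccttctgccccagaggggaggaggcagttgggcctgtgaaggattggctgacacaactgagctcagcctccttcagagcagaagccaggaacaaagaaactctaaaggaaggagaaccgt

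No other Cyp4f gene was called. Cyp4f13 had means of 11.58 ± 0.10 after saline, 11.40 ± 0.07 after Albulin, 11.30 ± 0.10 after Insulin-Apo and 11.34 ± 0.16 after insulin glargine (mean ± SD, n = 3), below saline without overlap in each case. Its difference from saline was -0.18, -0.28 and -0.24, and none passed the test. Cyp4f16 had differences of -0.39, -0.46 and -0.34 in the same order, with an adjusted p of 0.0874 at the lowest. Cyp4f14, a leukotriene B4 omega-hydroxylase, had 11.33, 11.66 and 11.38 in the saline arrays and 10.70, 10.58 and 11.44 after Insulin-Apo. The first 2 of these Insulin-Apo arrays lay below all saline arrays and the third did not, and the difference of -0.55 had an adjusted p of 0.151. Cyp4f39 had higher means after all 3 insulins, by 0.29, 0.11 and 0.19, without passing the test. Cyp4f18, Cyp4f37 and Cyp4f40 differed from saline by at most 0.10 in either direction.

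Cyp2d22, the mouse gene most often set beside human CYP2D6, was the only gene called in the Cyp2d subfamily of 9 members. Its values were 13.09, 13.15 and 13.02 in the saline arrays and 12.56, 12.39 and 12.70 after Insulin-Apo, with no overlap. They were 12.84, 12.81 and 12.74 after Albulin and 12.91, 12.74 and 12.85 after insulin glargine, between those 2 groups. The difference after Insulin-Apo was -0.54 (1.45-fold lower, SE 0.08, limma adjusted p = 0.00659) and was called in all 20 alternatives. After Albulin and insulin glargine the differences of -0.29 and -0.25 did not pass, with an adjusted p of 0.0787 and 0.0794. Cyp2d22 was 0.25 higher after Albulin than after Insulin-Apo (adjusted p = 0.232) and 0.28 higher after insulin glargine than after Insulin-Apo (adjusted p = 0.0517), so that neither difference passed.

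Cyp2d13, which RefSeq lists as a transcribed pseudogene, had 11.38, 11.47 and 11.53 in the saline arrays and 10.70, 10.42 and 11.16 after insulin glargine. All insulin glargine arrays were lower, with a difference of -0.69 (SE 0.15, limma adjusted p = 0.0118) that fell just short of a call by B. Without insulin glargine replicate 3, the array of that group nearest to saline, it was called at -0.90. After Albulin and Insulin-Apo the means were 11.23 ± 0.09 and 11.43 ± 0.21, against 11.46 ± 0.07 after saline. Cyp2d9, a steroid hydroxylase known for its expression in males, had differences of -0.39, -0.29 and -0.55, none of which passed. Cyp2d26, the member of this subfamily with the highest signal, had group means between 14.28 and 14.37. The other 5 members of the subfamily, Cyp2d10, Cyp2d11, Cyp2d12, Cyp2d34 and Cyp2d40, differed from saline by at most 0.20 in either direction.

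Of the 5 Cyp2b genes, 1 was called. Cyp2b9, known for higher expression in females, had 14.02, 14.06 and 14.09 in the saline arrays and 13.78, 13.76 and 13.59 after insulin glargine. The groups did not overlap, and the insulin glargine arrays also lay below all arrays of Albulin (13.94, 14.05 and 13.93) and Insulin-Apo (13.86, 13.93 and 13.98). The difference from saline was -0.35 (1.28-fold lower, SE 0.07, limma adjusted p = 0.00738). The call by B held in 8 of 22 alternatives. It was lost with every single array left out except Albulin replicate 2, at differences of -0.39 to -0.29, of which the smallest was that without insulin glargine replicate 3, and the adjusted p stayed under 0.05 in all 22. After Albulin and Insulin-Apo the differences of -0.08 and -0.14 did not pass.

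Cyp2b13 is the close copy of Cyp2b9. It had 12.18, 12.31 and 12.57 after saline, 11.95, 12.12 and 11.22 after Albulin, 11.59, 11.999 and 11.91 after Insulin-Apo and 11.44, 11.03 and 11.72 after insulin glargine. Every insulin array was below every saline array, although Albulin replicate 3 stood apart from the other two of its group. The differences from saline were -0.59, -0.52 and -0.95, of which that of insulin glargine had a limma adjusted p of 0.0153 and none was called by B. It was called without insulin glargine replicate 3 (-1.12) and without Albulin replicate 3, which is not part of the comparison and left the difference at -0.95.

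Cyp2b10, the best known target of CAR in mouse liver, had the largest range of all members, 3.58. It had 12.39, 12.12 and 12.28 in the saline arrays and 11.76, 11.85 and 11.65 after Albulin. After Insulin-Apo it had 11.18, 9.91 and 11.89, and after insulin glargine 12.73, 13.49 and 12.20. Albulin and Insulin-Apo thus lay below saline without overlap, and insulin glargine overlapped saline with 2 of its arrays above it. The Insulin-Apo arrays were spread over 2 log2 units, and the difference from saline of -1.27 had an adjusted p of 0.0829. Without Insulin-Apo replicate 3 it was -1.71 and was called (limma adjusted p = 0.00738). Between insulin glargine and Insulin-Apo the difference was 1.81 (3.51-fold higher after insulin glargine, 95% interval 0.95 to 2.68, limma adjusted p = 0.0113). It was not called by B, and it was called without Insulin-Apo replicate 3 (2.26) or insulin glargine replicate 3 (2.11). Cyp2b19 and Cyp2b23 differed from saline by at most 0.20 in either direction.

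**Figure D2:**
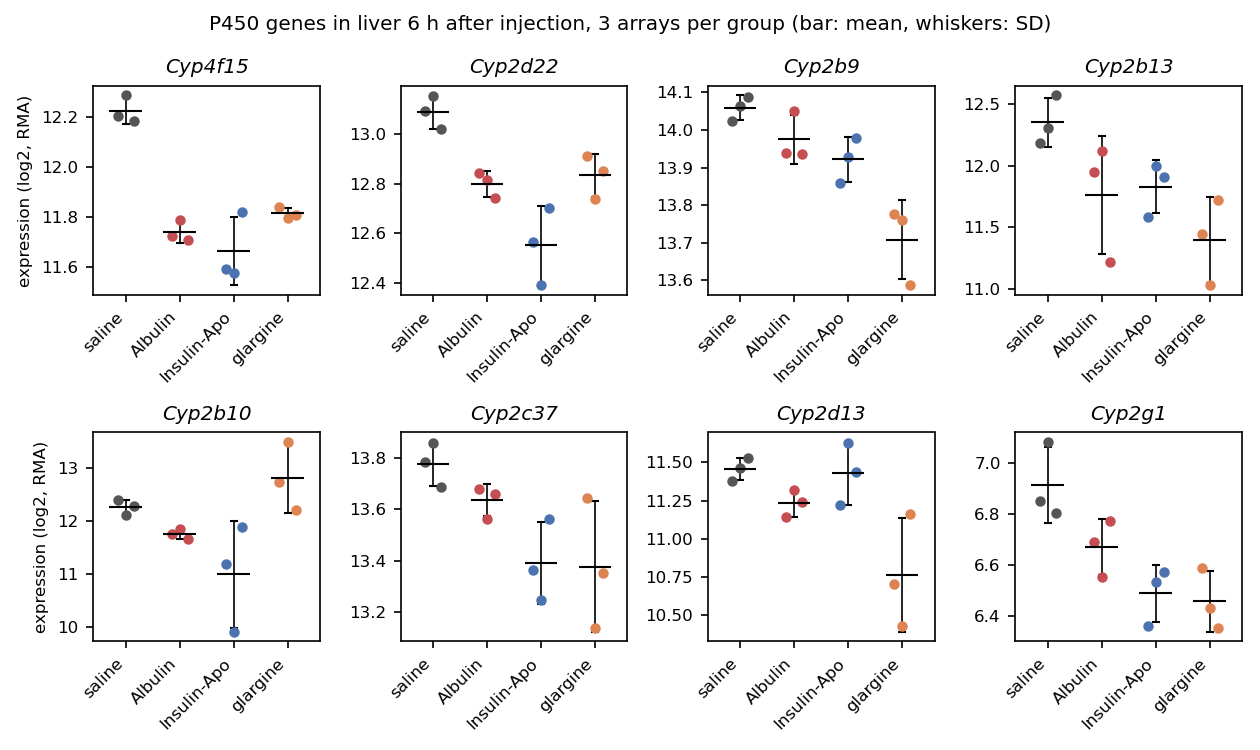
Log2 expression (RMA, vertical axis) of 8 members in each array (points) of the saline, Albulin, Insulin-Apo and insulin glargine groups, with the mean (bar) and SD (whiskers) of 3 arrays. The vertical axes differ between panels and do not start at 0. All insulin arrays of Cyp4f15, Cyp2d22, Cyp2b13, Cyp2c37 and Cyp2g1 lie below the saline arrays, and the points of Cyp2b10 run from 9.91 after Insulin-Apo to 13.49 after insulin glargine.

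The starts of the 3 main Cyp2b genes are shown because the genes lie on the same chromosome and gave the values above, with Cyp2b9 and Cyp2b13 lowest after insulin glargine and Cyp2b10 lowest after Insulin-Apo. Each sequence is the 250 bases before the RefSeq start on the plus strand of GRCm38.p6. That of Cyp2b9 lies at chr7:26173159-26173408, that of Cyp2b13 at chr7:26061245-26061494 and that of Cyp2b10 at chr7:25897408-25897657. Cyp2b9 and Cyp2b13 were identical at 248 of 250 bases (99.2%), and capitals mark the 2 bases that differ. Cyp2b10 was 71.0% identical to each of them over an alignment of 262 positions. Capitals in it mark the letters GCGTG, the core of the site bound by Ahr, or their reverse complement CACGC.
Cyp2b9: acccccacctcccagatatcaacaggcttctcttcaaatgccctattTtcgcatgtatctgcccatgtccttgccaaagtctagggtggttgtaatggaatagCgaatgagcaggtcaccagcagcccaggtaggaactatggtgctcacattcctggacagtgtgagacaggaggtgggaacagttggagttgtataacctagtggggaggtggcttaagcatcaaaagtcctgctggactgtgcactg
Cyp2b13: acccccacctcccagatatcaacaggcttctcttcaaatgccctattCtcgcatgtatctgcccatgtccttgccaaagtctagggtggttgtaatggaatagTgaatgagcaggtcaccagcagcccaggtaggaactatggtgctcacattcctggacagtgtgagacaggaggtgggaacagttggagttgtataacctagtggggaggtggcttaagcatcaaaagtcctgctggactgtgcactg
Cyp2b10: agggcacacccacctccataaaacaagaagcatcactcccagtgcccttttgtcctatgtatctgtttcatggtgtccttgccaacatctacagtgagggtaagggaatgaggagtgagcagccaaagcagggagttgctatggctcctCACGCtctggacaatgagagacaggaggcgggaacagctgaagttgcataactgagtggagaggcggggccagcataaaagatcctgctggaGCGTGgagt
The likeness shown is that of bases before the start, and the transcripts that the probes read were not compared. Cross-hybridisation of the Cyp2b9 and Cyp2b13 transcripts may still blur their values, and its extent was not tested.

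Of the 12 Cyp2c genes, which make epoxides of arachidonic and linoleic acid besides oxidising drugs, 9 had a lower mean than saline after Albulin and 11 each after Insulin-Apo and insulin glargine. limma called none of them, and 1, 4 and 9 had an unadjusted p under 0.05, all lower, where 18.1%, 17.4% and 22.5% of all probe sets had such a p in either direction. The median difference of the subfamily was -0.10, -0.16 and -0.30. Cyp2c37 had 13.78, 13.86 and 13.69 in the saline arrays, 13.68, 13.56 and 13.66 after Albulin, 13.36, 13.25 and 13.56 after Insulin-Apo and 13.64, 13.14 and 13.35 after insulin glargine. All insulin arrays were below all saline arrays, with differences of -0.14 after Albulin (limma adjusted p = 0.438), -0.38 after Insulin-Apo (0.0343) and -0.40 after insulin glargine (0.047). It was called by B after Insulin-Apo without Insulin-Apo replicate 3, at -0.47, and after insulin glargine without insulin glargine replicate 1, at -0.53.

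Cyp2c54 had 12.72, 13.08 and 12.94 after saline and 12.15, 11.18 and 12.79 after Insulin-Apo, where the second array was far below the third. Its differences were -0.55, -0.88 and -0.66, and those of Cyp2c50 were -0.20, -0.53 and -0.51, none of which passed. Without Insulin-Apo replicate 3, Cyp2c54 and Cyp2c50 were called after Insulin-Apo, at -1.25 and -0.76. With only the arrays of the 2 groups compared, Cyp2c54 was called after Albulin and after insulin glargine. Cyp2c38 differed by -0.63 after insulin glargine (adjusted p = 0.0663) and by -0.12 and -0.10 after the fusion proteins. Cyp2c39, a retinoic acid hydroxylase, was lower by 0.37 after each of the 3 insulins and did not pass in any. Cyp2c70, which makes muricholic acid, had a mean of 12.39 ± 0.23 after saline and 12.74 ± 0.31 after Albulin, with overlapping arrays (adjusted p = 0.43). Cyp2c23, an arachidonic acid epoxygenase and the member with the highest signal here, and Cyp2c29 differed from saline by -0.19 and -0.31 after insulin glargine. Cyp2c55, Cyp2c66, Cyp2c67 and Cyp2c68 differed by at most 0.29 in either direction.

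Cyp2g1, a steroid-oxidising P450 known from the olfactory mucosa, was measured at a low signal. It had 6.85, 7.08 and 6.80 in the saline arrays, 6.69, 6.55 and 6.77 after Albulin, 6.36, 6.54 and 6.57 after Insulin-Apo and 6.59, 6.43 and 6.35 after insulin glargine. All insulin arrays were lower than all saline arrays. The differences were -0.24 (limma adjusted p = 0.194), -0.42 (0.0322) and -0.45 (0.0097), with no call by B. The last was called without insulin glargine replicate 1, at -0.52.

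Arrays of Albulin lay above saline without overlap for Cyp2j9, Cyp1b1 and Cyp2r1, besides Cyp2j12 and Cyp4f39. Cyp2j9 had 9.26, 8.70 and 8.98 in the saline arrays and 9.65, 9.56 and 10.03 after Albulin, with no overlap, and 9.61, 9.08 and 9.56 after Insulin-Apo and 9.13, 9.54 and 9.94 after insulin glargine. The difference after Albulin was 0.77 (1.70-fold higher, SE 0.17, limma adjusted p = 0.0317) and was not called by B. It was called without saline replicate 1, at 0.91, and without Insulin-Apo replicate 2, which is not part of the comparison and left the difference as it was. The differences after Insulin-Apo and insulin glargine, 0.44 and 0.55, had adjusted p values of 0.217 and 0.128. The other 5 members of the subfamily did not pass in any comparison with saline. Cyp2j5, an arachidonic acid epoxygenase and its member with the highest signal, had a mean of 12.99 ± 0.07 after saline and of 12.96 to 13.07 after the insulins.

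Cyp1b1, which hydroxylates estradiol and polycyclic hydrocarbons, had 7.14, 7.18 and 6.99 after saline and 7.39, 7.38 and 7.48 after Albulin. The difference of 0.31 had a limma adjusted p of 0.0322 and was not called by B. It was 0.02 after Insulin-Apo and 0.23 after insulin glargine, where the arrays were spread from 7.03 to 7.60. Cyp1a2, the hepatic caffeine oxidase, had means of 12.75 ± 0.18 after saline, 12.80 ± 0.12 after Albulin, 12.48 ± 0.38 after Insulin-Apo and 12.94 ± 0.23 after insulin glargine, and did not pass in any comparison. Cyp1a1 differed from saline by at most 0.20. Cyp2r1, a hydroxylase that activates vitamin D in the liver, had 9.44, 9.49 and 9.57 after saline, 9.74, 9.65 and 9.87 after Albulin and 9.14, 9.46 and 8.26 after insulin glargine. Insulin glargine was lower than Albulin by 0.80 (SE 0.22, limma adjusted p = 0.0438), with replicate 3 far below the other two.

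Values of Cyp2e1 and of the Cyp4a enzymes lay close together. Cyp2e1, the ethanol-oxidising P450, had values of 14.58 to 14.69 in all 12 arrays, and Cyp4a14, a fatty acid omega-hydroxylase under Ppara, had 14.58 to 14.66, the smallest range of all members at 0.08. Cyp4a10 and Cyp4a31 differed from saline by at most 0.10 in either direction. All 4 members with a range under 0.2 had a mean over 14, and 5 members in all had such a mean, while the highest value on an array was 14.93 to 15.003. How far signals this near the top of the scale could still rise was not tested. Cyp2f2, which activates naphthalene, differed from saline by 0.00, -0.13 and -0.12, with 14.20, 14.14 and 13.54 after insulin glargine, where replicate 3 was the lowest of all 12 arrays. Cyp2a12, a bile acid hydroxylase, had means of 13.51 to 13.75, and Cyp2a22 was spread from 10.83 to 12.53 with an SD of 0.67 among the saline arrays. Cyp2s1, Cyp2t4, Cyp2w1, Cyp4x1 and the fatty acid hydroxylase Cyp2u1 differed from saline by at most 0.20. Cyp4b1 differed by -0.28 after insulin glargine and by at most 0.05 after the fusion proteins, and none of these passed.

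In the Cyp3a subfamily, the main steroid and drug oxidases and classical targets of PXR, limma called no member of 6, and 0, 2 and 1 had an unadjusted p under 0.05 after Albulin, Insulin-Apo and insulin glargine. Such a p was reached by 18.1%, 17.4% and 22.5% of all probe sets in either direction. Cyp3a11 had 13.79, 13.82 and 13.76 in the saline arrays and 13.64, 13.64 and 13.73 after Insulin-Apo, a difference of -0.12 without overlap that did not pass (adjusted p = 0.409). Cyp3a25, the member with the highest signal, differed by -0.16 after Insulin-Apo (adjusted p = 0.264) and Cyp3a44 by -0.42 (0.134). After Albulin these 3 genes differed from saline by 0.06, 0.00 and -0.05. Cyp3a16 varied most within groups, from 9.54 to 11.18 among the saline arrays and from 9.24 to 11.52 among those of insulin glargine, and its differences of -0.50, -0.91 and -0.27 did not pass. Cyp3a13 had 13.43, 13.45 and 13.27 after Albulin and 13.08, 13.10 and 12.72 after insulin glargine, a difference of -0.42 with a limma adjusted p of 0.0489. Cyp3a57 differed from saline by at most 0.17.

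The 3 insulins were then compared with each other. Between Albulin and Insulin-Apo, limma called no member (0.639% of all probe sets were called) and none had an adjusted p under 0.05 (0.139% of all probe sets), whereas 10 had an unadjusted p under 0.05 (15.6%, against 13.5% of all probe sets in either direction), all with higher values after Albulin. The mean was higher after Albulin in 49 of 64 members, against 14715 of 25989 probe sets tested. The median difference was 0.07, against 0.02 for all probe sets. The arrays of Albulin lay above those of Insulin-Apo without overlap for 9 members (14.1%, against 9.55% of all probe sets) and below them for 0 (9.02% of all probe sets). The 9 were Cyp1b1, Cyp2c37, Cyp2d10, Cyp2d22, Cyp2j12, Cyp2t4, Cyp3a11, Cyp3a25 and Cyp3a44. Since no member passed, the intervals of the differences are the measure: that of Cyp2d22 was 0.07 to 0.43, that of Cyp2b10 -0.03 to 1.55 and that of Cyp4f15 -0.09 to 0.24.

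Against Albulin, insulin glargine had no member called by B, where 4.35% of all probe sets were called, and 11 members with an unadjusted p under 0.05 (17.2%, against 20.9% of all probe sets), of which 3 were higher and 8 lower. An adjusted p under 0.05 was reached by 4 members, all lower after insulin glargine (8.94% of all probe sets in either direction): Cyp2b9 (-0.27), Cyp2r1 (-0.80), Cyp3a13 (-0.42) and Cyp2c29 (-0.39). Against Insulin-Apo, insulin glargine again had no member called, where 4.84% of all probe sets were called, and 14 members with an unadjusted p under 0.05 (21.9%, against 23.5% of all probe sets), of which 8 were higher and 6 lower. Cyp2b10 was higher and Cyp2d13 lower (-0.67) at an adjusted p under 0.05, a share of members below the 10.8% of all probe sets. For Cyp4f15 the difference between insulin glargine and Albulin was 0.07 (95% interval -0.09 to 0.24) and between insulin glargine and Insulin-Apo 0.15 (-0.01 to 0.31), neither of which passed.

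**Figure D3:**
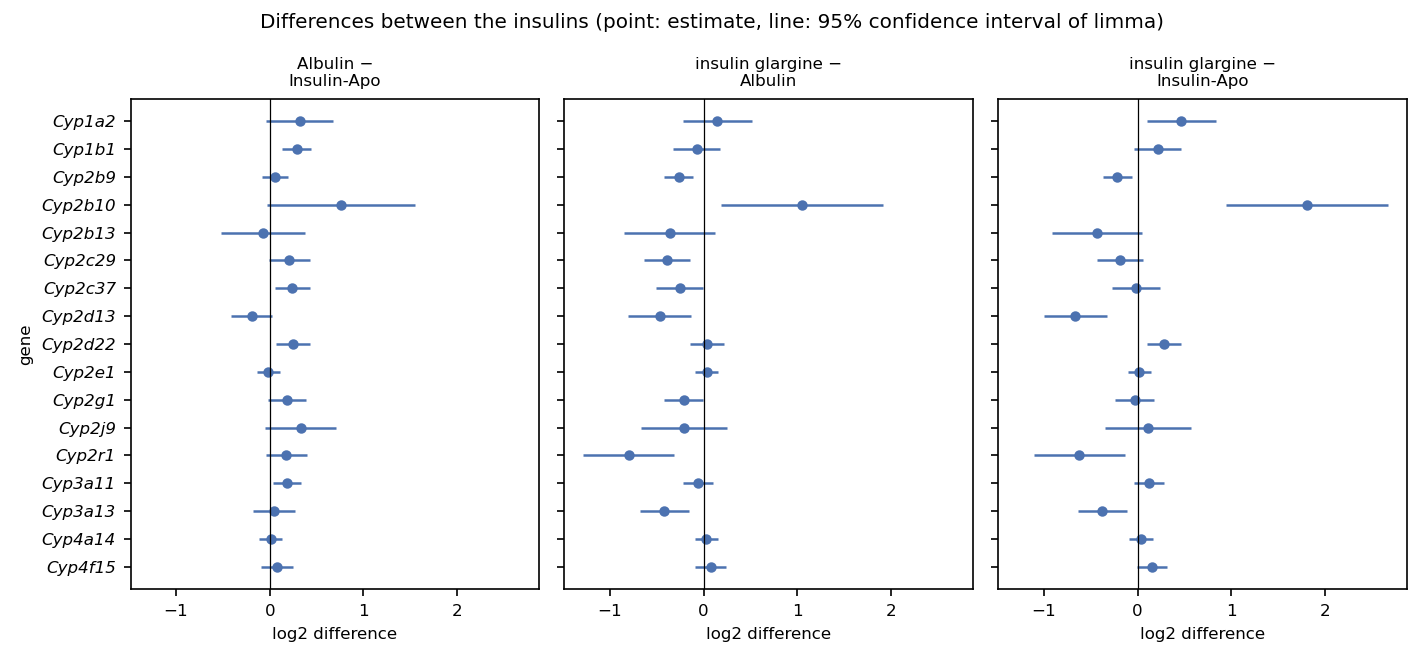
Log2 differences (horizontal axis) between Albulin and Insulin-Apo (left), insulin glargine and Albulin (middle) and insulin glargine and Insulin-Apo (right) of 17 members (vertical axis), with the limma estimate as a point and its 95% confidence interval as a line. The 17 are the 13 members with an adjusted p under 0.05 in any of the 6 comparisons, and Cyp1a2, Cyp2e1, Cyp3a11 and Cyp4a14. The intervals of Cyp2e1 and Cyp4a14 are short and include 0 in every panel, and that of Cyp2b10 in the right panel runs from 0.95 to 2.68.

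Over the 4 treatments together, a moderated F test found 6 of the 64 members at an adjusted p under 0.05, where 13.3% of all probe sets passed. They were Cyp4f15 (adjusted p = 0.00125), Cyp2d22 (0.00679), Cyp2g1 (0.0206), Cyp2b9 (0.0235), Cyp2d13 (0.0249) and Cyp2b10 (0.0359). Cyp2b13 followed at 0.0569. The median SD within groups of the members was 0.10 after saline and Albulin, 0.11 after Insulin-Apo and 0.15 after insulin glargine. Insulin glargine replicate 3 stood apart from the other arrays, with a mean correlation with its own group of 0.990 over all probe sets, against 0.993 to 0.997 for the other 11 arrays.

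Sequence motifs of known P450 regulators were counted on both strands in the 300 bases around the RefSeq starts (250 before and 50 after, GRCm38.p6), which the table gave for 52 of the 64 members with 59 starts. The Ahr core GCGTG was found at 13 of the 59 starts (22.03%), against 32.4% of all 32851 starts in the table. The letters CAAAGTCCA, a form of the site bound by HNF4, were found at 5 starts (8.47%), against 0.475% of all, and these belonged to Cyp2c67, Cyp2c68, Cyp2c70, Cyp3a11 and Cyp3a16. Related genes share sequence, so these are not independent cases. The E-box CACGTG was found at 1 start, that of Cyp2j6 (1.7%, against 7.15% of all). The D-box TTATGTAA or TTACGTAA, bound by Dbp and Tef, was found at 0 member starts and at 1.06% of all. Direct repeats of AGGTCA spaced by 1 base (DR1, bound by Ppara) or 4 bases (DR4, bound by CAR and PXR) were found at 0 member starts and at 0.04% and 0.015% of all. A match is a run of letters and not a proven site, and distant enhancers were not searched.

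Genes that supply and regulate the P450 enzymes were listed from general knowledge. Of the electron supply, P450 reductase (Por) had no probe set with exactly 1 gene symbol and was not analysed. Cyb5a, Cyb5b and Cyb5r3 were measured and limma called none in any comparison, with differences from saline of -0.36 to 0.18. All 3 had an unadjusted p under 0.05 after insulin glargine, where they were lower (22.5% of all probe sets in either direction). After the fusion proteins 0 did. Heme synthesis and breakdown had 10 measured genes, of which 1 was called higher after Albulin, 0 after Insulin-Apo and 2 lower after insulin glargine. Of all probe sets tested, 356 of 25989 were called higher after Albulin and 2.6% lower after insulin glargine. After insulin glargine 9 of the 10 lay below saline without overlap, against 13.1% of all probe sets. The mean over the list was then 10.62 to 10.74, against 11.01 to 11.06 after saline. Alas1, the first and rate-limiting enzyme of heme synthesis, had 13.54, 13.52 and 13.49 after saline, 13.84, 13.93 and 14.04 after Albulin, 13.79, 13.92 and 13.53 after Insulin-Apo and 13.10, 12.75 and 13.37 after insulin glargine. All insulin glargine arrays were below, and all Albulin arrays above, the saline arrays. Insulin glargine was lower than Albulin by 0.87 (SE 0.14, limma adjusted p = 0.00167), a call held in all 22 alternatives, and lower than Insulin-Apo by 0.67 (0.00707), called in 9 of 22 and held, among the arrays left out, only without Insulin-Apo replicate 3 or insulin glargine replicate 3. Against saline the difference was 0.43 after Albulin (adjusted p = 0.0311) and -0.44 after insulin glargine (0.0586), and neither was called. Ppox, of heme synthesis, fell by 0.48 after insulin glargine with each array left out in turn as well. Blvrb, of heme breakdown, fell by 0.56, a call lost without saline replicate 1 or 2 or insulin glargine replicate 1 or 2, over alternatives of -0.66 to -0.46. Hmox1, which opens the heme ring, rose by 1.02 after Albulin (limma adjusted p = 0.00928), a call lost without Albulin replicate 3 or saline replicate 2, over alternatives of 0.85 to 1.22.

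The regulator list had 22 measured genes, with 0 called higher and 2, 3 and 4 called lower after Albulin, Insulin-Apo and insulin glargine. Of all probe sets, 1.04%, 0.804% and 2.6% were called lower. CAR (Nr1i3) had 12.70, 12.39 and 12.54 in the saline arrays, 11.83, 11.64 and 11.87 after Albulin, 11.70, 11.53 and 12.21 after Insulin-Apo and 11.47, 11.61 and 12.21 after insulin glargine. All insulin arrays lay below all saline arrays, with differences of -0.76, -0.73 and -0.78, with limma adjusted p values of 0.0187, 0.0263 and 0.0202. Only the first was called by B, in 11 of 20 alternatives, and it was lost without any 1 of the Albulin and saline arrays or without Insulin-Apo replicate 1, at differences from -0.84 to -0.69. Over the same arrays Cyp2b10, the CAR target, lay below saline without overlap after both fusion proteins and had a higher mean than saline after insulin glargine. PXR (Nr1i2) differed from saline by 0.06, 0.11 and 0.20, and Ppara by -0.31, -0.25 and -0.47, the last with an adjusted p of 0.0138.

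Dbp and Tef, circadian factors known to drive Cyp2a, Cyp2b and Cyp2c genes and CAR, were low after the insulins. Dbp had 11.03, 11.47 and 11.16 after saline, 10.27, 10.37 and 10.10 after Albulin, 9.57, 10.53 and 10.18 after Insulin-Apo and 8.80, 8.90 and 8.64 after insulin glargine. The insulin glargine arrays lay below all others, -2.44 from saline (limma adjusted p = 2.29e-05), -1.46 from Albulin (0.000513) and -1.31 from Insulin-Apo (0.00113), and the 3 calls held in all 22 alternatives. Dbp differed from saline by -0.97 after Albulin, not called, and fell by 1.13 after Insulin-Apo, called in 17 of 20 alternatives and lost without saline replicate 2 (-1.002) or 3 (-1.16). Tef differed by -0.54, -0.64 and -0.69, the last 2 called. The call after Insulin-Apo held in 14 of 20 alternatives and was lost without Insulin-Apo replicate 1 or 2 or saline replicate 2 or 3, and that after insulin glargine held in 6 of 22 and, among the arrays left out, only without Insulin-Apo replicate 3 or insulin glargine replicate 2. Over the alternatives the differences ran from -0.80 to -0.56 and from -0.83 to -0.56. The time of day of the injections is not given in the sources used here.

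Ahr had 10.97, 10.87 and 11.12 after saline and 9.85, 10.38 and 10.16 after insulin glargine, a fall of 0.86 (limma adjusted p = 0.00193) held in all 22 alternatives, and it was also lower than after Albulin (-0.99) and Insulin-Apo (-0.75). The last call was lost without Insulin-Apo replicate 1 or 3 or insulin glargine replicate 1 or 3, at differences of -0.87 to -0.61 over the alternatives. After Albulin and Insulin-Apo it differed from saline by 0.13 and -0.11. Its known targets Cyp1a1, Cyp1a2 and Cyp1b1 differed from saline by 0.10, 0.19 and 0.23 after insulin glargine, and none passed. FXR (Nr1h4) fell by 0.44 after Insulin-Apo (limma adjusted p = 0.0178, called in 13 of 20 alternatives), and the call was lost without Insulin-Apo replicate 1 or 2 or saline replicate 1 or 3, at differences of -0.50 to -0.37. Nfe2l2, a transcription factor of the response to oxidative stress, fell by 0.48 after Albulin (limma adjusted p = 0.011, lost without Albulin replicate 1 or saline replicate 1 or 3, at -0.56 to -0.42) and by 1.35 after insulin glargine (9.04e-05).

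**Figure D4:**
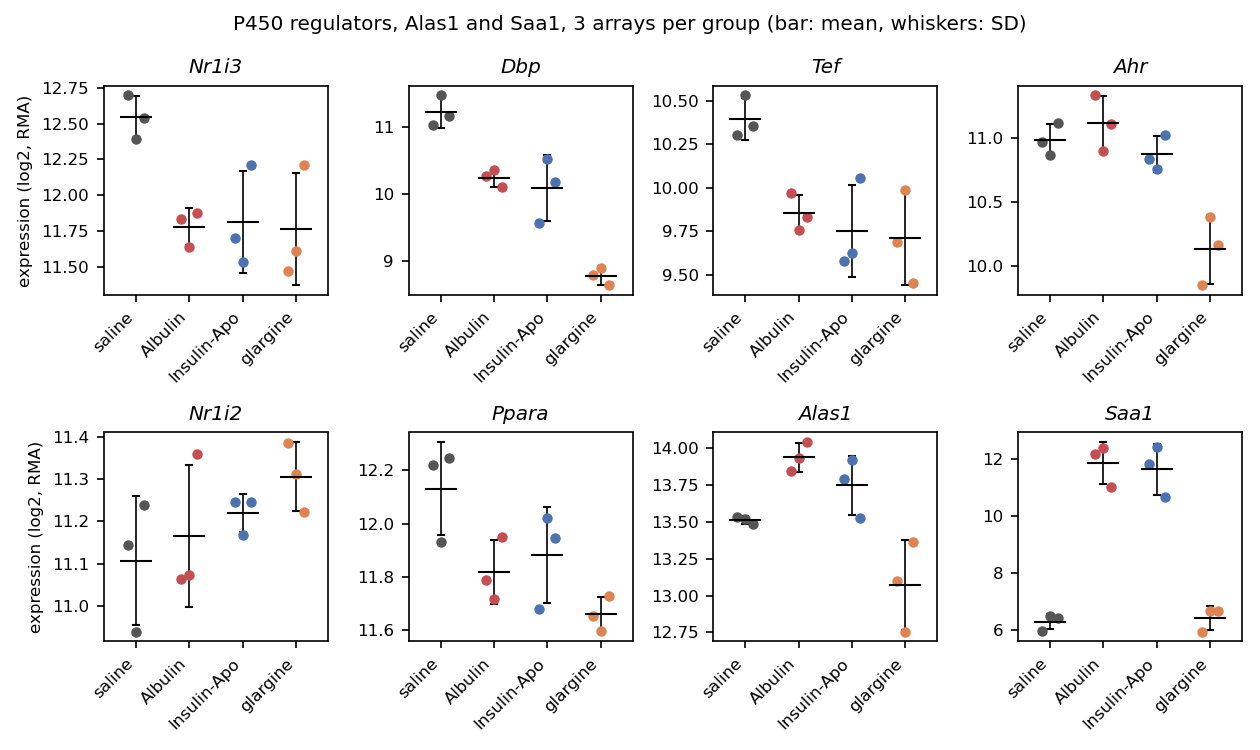
Log2 expression (RMA, vertical axis) in each array (points) of 6 P450 regulators, of the heme synthesis gene Alas1 and of the acute phase gene Saa1, by treatment, with the mean (bar) and SD (whiskers) of 3 arrays. The vertical axes differ between panels and do not start at 0. Nr1i3, Dbp and Tef lie below saline after each insulin, Ahr after insulin glargine, and Saa1 is between 10.65 and 12.42 after Albulin and Insulin-Apo and between 5.94 and 6.67 after saline and insulin glargine.

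Inflammation is known to lower hepatic P450 expression, and the acute phase genes differed between the treatments. Of 16 such genes, 12 were called higher after Albulin, 9 after Insulin-Apo and 0 after insulin glargine, where 1 of the 16 had an unadjusted p under 0.05 by limma. Among all probe sets tested, 356 of 25989, 347 of 25989 and 583 of 26027 were called higher. Saa1 had 5.98, 6.49 and 6.43 after saline, 12.18, 12.37 and 11.003 after Albulin, 11.82, 12.42 and 10.65 after Insulin-Apo and 5.94, 6.67 and 6.67 after insulin glargine. Cyp4f15, Cyp4f13, Cyp2d22, Cyp2b13, Cyp2c37 and Cyp2g1 were picked above for lying below saline without overlap after all 3 insulins. Their pattern over the groups was thus fixed by that choice and cannot bear on Saa1. Saa1 itself was high after both fusion proteins and near its saline level after insulin glargine. The neutrophil list was higher in the same groups as Saa1: 3 of 5 markers were called higher after Albulin and 0 after Insulin-Apo, where limma gave 4 an unadjusted p under 0.05, with a mean log2 value over the list of 6.85 to 7.08 after saline, 7.54 to 7.66 after Albulin, 7.32 to 7.62 after Insulin-Apo and 6.75 to 6.97 after insulin glargine. Of 6 Kupffer cell markers, 1 (Marco) was called higher after Insulin-Apo, a call that among the arrays left out held only without Insulin-Apo replicate 3, and of 7 pericentral markers other than P450 genes, 1 (Lgr5) was called lower after insulin glargine. Of 23 markers of periportal hepatocytes, sinusoidal endothelium, stellate cells, cholangiocytes, B cells, and T and NK cells, limma called none against saline. An unadjusted p under 0.05 was reached by 7, 4 and 10 after Albulin, Insulin-Apo and insulin glargine (18.1%, 17.4% and 22.5% of all probe sets). At an adjusted p under 0.05 there were 0 after Albulin and 1, lower, after Insulin-Apo (4.69% and 3.73% of all probe sets). After insulin glargine 4 were higher and 5 lower at that threshold (10.9% of all probe sets in either direction). The part of these cells, and of inflammation, in the P450 differences was not tested.

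Among 17 measured genes of the other P450 families limma called none in any of the 6 comparisons, and against saline 2, 5 and 4 had an unadjusted p under 0.05 after Albulin, Insulin-Apo and insulin glargine (18.1%, 17.4% and 22.5% of all probe sets). At an adjusted p under 0.05 there was 1 gene after Albulin, 1 after Insulin-Apo and 3 after insulin glargine, all lower than saline. In either direction 4.69%, 3.73% and 10.9% of all probe sets passed that threshold. Cyp7a1, the rate-limiting enzyme of bile acid synthesis, had 13.63, 13.75 and 13.52 after saline, 12.19, 11.21 and 11.09 after Albulin, 11.18, 10.12 and 12.88 after Insulin-Apo and 13.18, 13.13 and 13.37 after insulin glargine. Its differences of -2.14, -2.24 and -0.41 had limma adjusted p values of 0.0467, 0.0442 and 0.747. The largest difference from saline among the 64 members of families 1 to 4, that of Cyp2b10 after Insulin-Apo, was smaller than those of Cyp7a1 after both fusion proteins.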

How the data were processed

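Mouse liver RNA was read on 12 Affymetrix Mouse Gene 1.0 ST arrays (3 per treatment), and the authors deposited RMA values on a log2 scale (background correction, quantile normalization and summary by probe set). Not given in the sources used here were the RMA version, the annotation build and whether normalization spanned all 12 arrays. Genes were named from the platform annotation. No pseudocount or further scaling was applied. Array medians were 7.70 to 7.77, and 3 arrays a group limit the precision.

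limma 3.58.1 (R 4.3.3) tested the probe sets that exceeded a log2 value of 5 on 2 or more arrays of any group: 25989 in the fit of 9 arrays without insulin glargine, and 26027 in the fit of 12 for insulin glargine. A B over 0 (prior proportion 0.01) made a call, and p values were adjusted over all probe sets (Benjamini-Hochberg). The fits were tested on simulated data. Named genes were the called members, the member with the highest mean of each subfamily, those with the largest and smallest range, and called genes of the lists. All other members were named after their values were seen. The members and lists were chosen with earlier results of these data known. Promoters came from RefSeq. Of the members, 8 are also named on 7 probe sets with several symbols, which were not used.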

Additional observations from a re-analysis of the deposited data

How the results depend on the processing

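For some of the members and some of the listed genes, each difference was recomputed under each alternative, giving 6048 values. Cyp2c54, Cyp2c50 and Cyp4f14, whose calls changed in some alternatives, are not among these genes. No call was reversed among the 6048 values. Of these values, 5837 kept their side of the threshold, 98 passed it newly and 113 no longer passed it. Among the 5837, 139 values called in neither setting changed sign and 5698 kept their direction. When calls were made at an adjusted p under 0.05, the members that passed numbered 3 for Albulin and 4 for Insulin-Apo against saline, 6 for insulin glargine against saline, 4 for insulin glargine against Albulin and 2 for insulin glargine against Insulin-Apo. The shares of all probe sets were 4.69%, 3.73%, 10.9%, 8.94% and 10.8% in the same order. With only the arrays of the 2 groups compared, 3 members were called for Albulin against saline, where 684 of 25952 probe sets were called. With array quality weights the counts were 4 for insulin glargine against saline, 1 against Albulin, 2 against Insulin-Apo and 10 by the F test. In the first 3 of these, 1619, 1303 and 1394 of 26027 probe sets were called. With each array centred on its median, 1 member was called for insulin glargine against saline, where 1161 of 26027 probe sets were called. The causes were not tested.

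With the replicate number as a block, 2 members were called for Albulin against saline and 1 for insulin glargine against saline. Among all probe sets, 590 of 25989 and 1129 of 26027 were then called. The numbers did not pair the arrays: same-numbered arrays had a mean correlation of deviations of -0.035 (-0.268 to 0.149 over 18 pairs), and 1 of 12 arrays correlated best with its own number.

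Leaving out single arrays gave 1 to 2 members called for Albulin against saline (2 without saline replicate 1 or Insulin-Apo replicate 2) and 2 to 7 for Insulin-Apo against saline (7 without Insulin-Apo replicate 3). It gave 0 to 1 for Albulin against Insulin-Apo (1 without Insulin-Apo replicate 3). For insulin glargine against saline it gave 0 to 3 (3 without insulin glargine replicate 1 or 3, 0 without saline replicate 1 or 2 or insulin glargine replicate 2, and 1 without saline replicate 3, Albulin replicate 1 or any Insulin-Apo array). For insulin glargine it gave 0 to 1 against Albulin (1 without insulin glargine replicate 2 or 3) and 0 to 3 against Insulin-Apo (3 without Insulin-Apo replicate 3, 2 without insulin glargine replicate 3). Over the same fits the probe sets called, of 25989, were 411 to 701 for Albulin and 323 to 641 for Insulin-Apo against saline. The 641 came without Insulin-Apo replicate 3. They were 75 to 179 for Albulin against Insulin-Apo. For insulin glargine, of 26027, they were 820 to 1362 against saline, 729 to 1193 against Albulin and 815 to 1264 against Insulin-Apo. The F test gave 2 to 10 members (10 without Insulin-Apo replicate 3, 2 without saline replicate 2, 3 without saline replicate 3).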
